A study of Mus musculus with 2 samples.

Results

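A set of 8 genes was followed through the cell types of injured mouse liver: the adhesion receptors Vcam1, Icam1, Icam2 and Selp and the integrin chains Itga4, Itgb1, Itgal and Itgb2. They were chosen by gene symbol from the 27998 genes counted in both libraries, and all 8 were found in each. The cells were liver nonparenchymal cells, which stay in suspension when hepatocytes are spun down, of C57BL/6 mice given carbon tetrachloride (CCl4) 4 times, a toxin that kills hepatocytes and brings about scarring. The library labelled yap1 came from mice with floxed Yap1 alleles and Cre from Lyz2, a gene of myeloid cells, so that Yap1, a coactivator of the Hippo pathway, is meant to be lost in macrophages, monocytes and neutrophils. The other library, labelled WT, came from wild-type mice with the same strain, CCl4 and cell preparation. Each library is 1 sample from 3 mice, with no value per mouse, and the sources used here do not give the age of the mice.

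White blood cells leave the blood by binding receptors on the vessel wall. Selectins such as P-selectin (Selp), which endothelial cells and platelets store in granules, first slow the cell. Integrins of the white blood cell then hold it: the chain pair Itga4 and Itgb1 forms VLA-4, which binds Vcam1 and fibronectin, and the pair Itgal and Itgb2 forms LFA-1, which binds Icam1 and Icam2. In mouse liver, Vcam1 is also a known gene of Kupffer cells, the resident macrophages, and the wall of the sinusoids carries little selectin at rest.

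The yap1 library held 4731 cell barcodes with 34234353 UMIs (unique molecular identifiers, 1 per captured RNA molecule) and a median of 4707 per barcode, and the WT library 5269 barcodes with 30386545 UMIs and a median of 3860. After filtering, 4149 yap1 and 4847 WT cells remained, and 5 barcode sequences occurred in both libraries. Cells were assigned to classes by marker genes that include none of the 8 genes, and the 11 of 20 classes that reached 50 cells in both libraries were compared. Each class is named for the markers of the gate, as "-like". In Kupffer cell-like cells a median of 7 of 9 Kupffer markers were detected, and the leading genes of the sinusoidal endothelial-like class were Aqp1, Clec4g and Ptprb. Yap1 had 3 yap1 and 3 WT UMIs over all compared myeloid classes together, so these counts check neither the deletion nor the labels. In sinusoidal endothelial-like cells it stood at 65.7 CPM in the yap1 library and 68.7 CPM in the WT library. CPM are UMIs scaled to a class total of 1000000. With 1 library per genotype there is no test and no replicate check, and each 95% interval in parentheses covers counting error only.

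The Ensembl IDs and places of the genes, in GENCODE M21 (GRCm38, the build mm10), are as follows. Vcam1 (ENSMUSG00000027962) lies on chromosome 3 from 116109949 to 116129688, minus strand. Icam1 (ENSMUSG00000037405) lies on chromosome 9 from 21015985 to 21028817, plus strand. Icam2 (ENSMUSG00000001029) lies on chromosome 11 from 106377656 to 106388075, minus strand. Selp (ENSMUSG00000026580) lies on chromosome 1 from 164115264 to 164150026, plus strand. Itga4 (ENSMUSG00000027009) lies on chromosome 2 from 79255426 to 79333123, plus strand. Itgb1 (ENSMUSG00000025809) lies on chromosome 8 from 128685654 to 128733200, plus strand. Itgal (ENSMUSG00000030830) lies on chromosome 7 from 127296260 to 127335138, plus strand, and Itgb2 (ENSMUSG00000000290) on chromosome 10 from 77530252 to 77565708, plus strand. Genes on the opposite strand overlap Vcam1, Icam1, Selp and Itga4, and whether counting used strand is not stated in the labels, so their reads cannot be told apart. The largest of those neighbours in UMIs was Cerkl, at the end of Itga4, with 40 yap1 and 35 WT UMIs against 7393 yap1 and 6598 WT UMIs of Itga4. Beside the counts of its own neighbour, Selp was more exposed. Gm16548, at the end of Selp, had 24 yap1 and 32 WT UMIs against 184 yap1 and 250 WT UMIs of Selp.

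The 4 endothelial receptors did not mark the same cells. Vcam1 was highest in Kupffer cell-like cells, Icam2 and Selp in sinusoidal endothelial-like cells, and the highest classes of Icam1 overlapped in their intervals. The integrin chains Itga4, Itgal and Itgb2 were highest in patrolling monocyte-like cells and had at most 9 UMIs in sinusoidal endothelial-like and hepatocyte-like cells of either library, whereas Itgb1 was highest in sinusoidal endothelial-like cells. The leading classes named here for genes other than Icam1 were the same in both libraries.

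**Figure D1:**
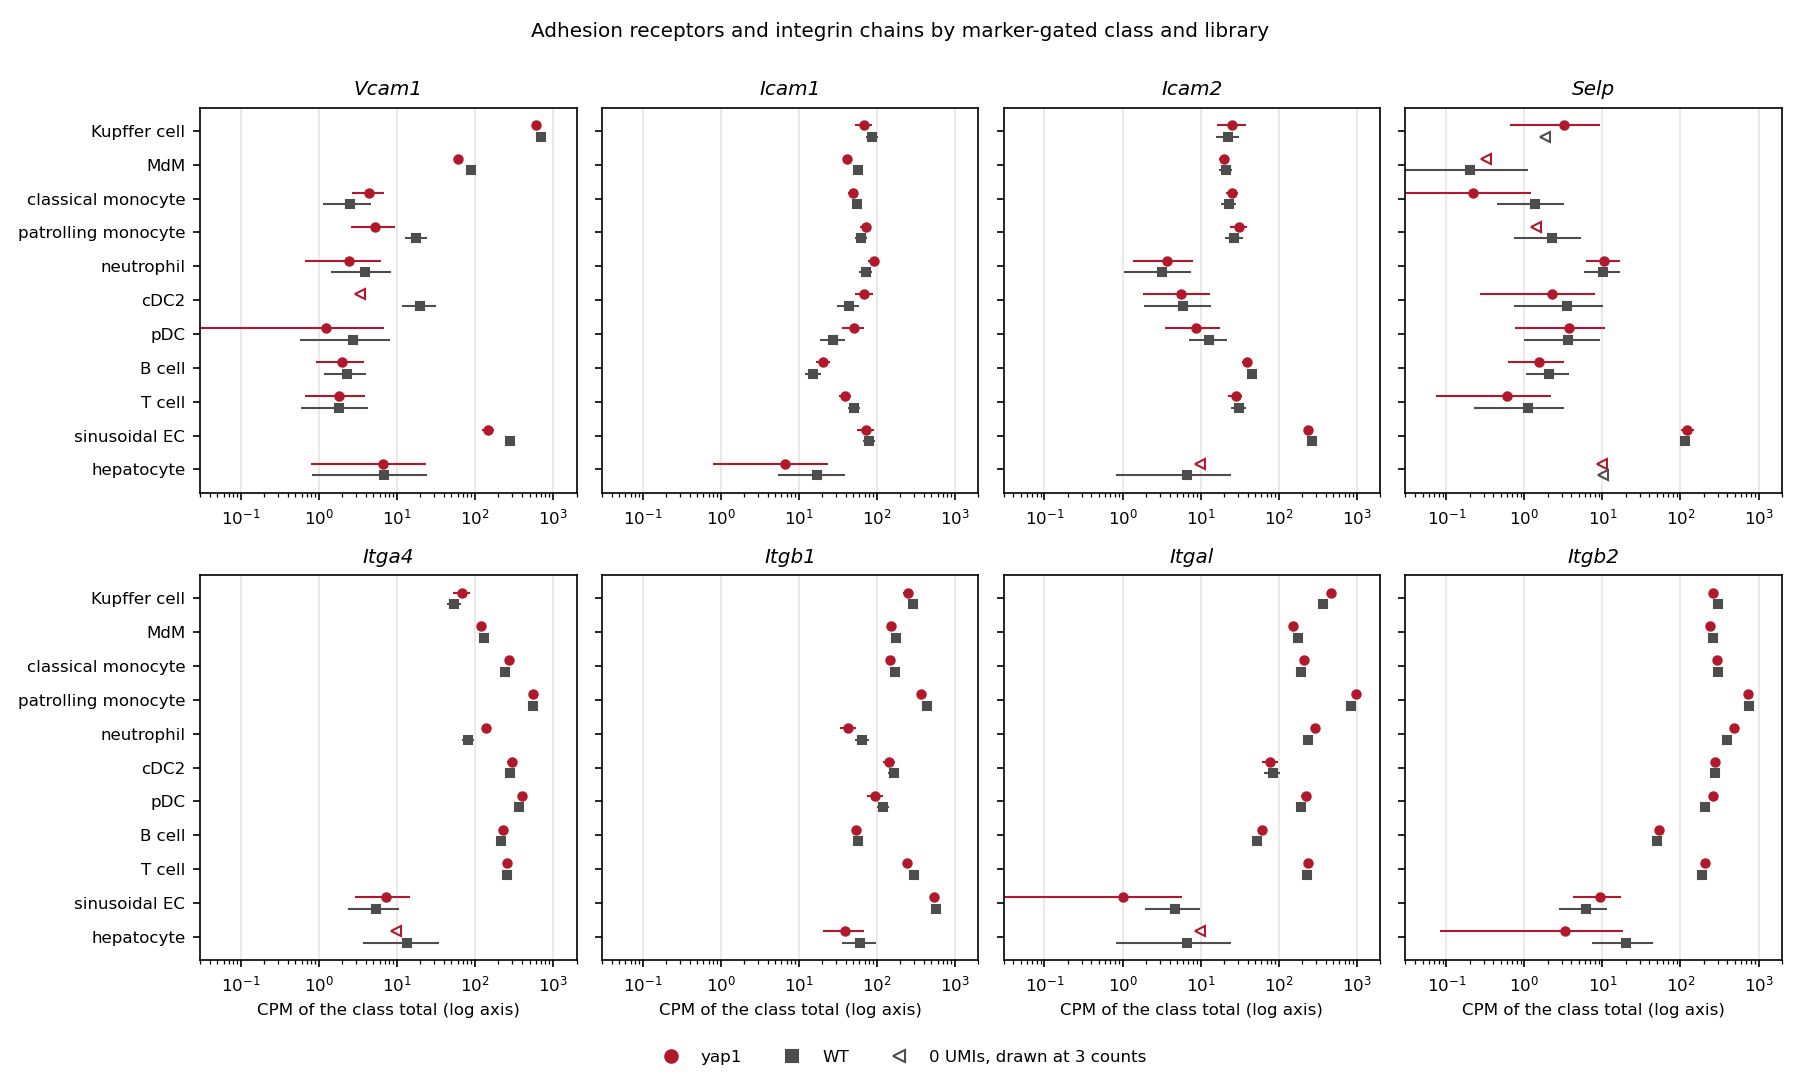
Level of each gene (CPM of the class total, log axis) in 11 marker-gated classes, yap1 above WT within each class; bars are 95% Poisson intervals for counting error and open triangles mark 0 UMIs, drawn at the level 3 counts would give. Vcam1 peaks in Kupffer cells at 607 CPM (yap1) and 709 CPM (WT), while Itga4, Itgal and Itgb2 peak in patrolling monocytes and Itgb1 in sinusoidal endothelial cells (EC); MdM are monocyte-derived macrophages, cDC2 and pDC are dendritic cells.

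Between the libraries most values lay close together. Of 88 pairs of gene and class, 64 had at least 20 UMIs over both libraries and were counted, and 8 of these differed by at least 1.5-fold, 4 higher and 4 lower in the yap1 library. Over all genes, 16% of 86949 gene and class pairs did so, 8.19% higher and 7.86% lower, and the share among the 8 genes, 12.5%, was not above it. In single classes the share of all genes past 1.5-fold was 10.7% in B cell-like, 11.5% in monocyte-derived macrophage-like, 12.3% in T cell-like, 13.4% in classical monocyte-like and 14.5% in patrolling monocyte-like cells. It was 16.1% in plasmacytoid dendritic, 16.8% in sinusoidal endothelial, 19% in Kupffer, 21.8% in type 2 conventional dendritic, 27.3% in neutrophil and 28% in hepatocyte-like cells. Among pairs with at least 100 UMIs it was 3 of 55, against 6.25% of all such pairs. The values are therefore described as levels, gene by gene.

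**Figure D2:**
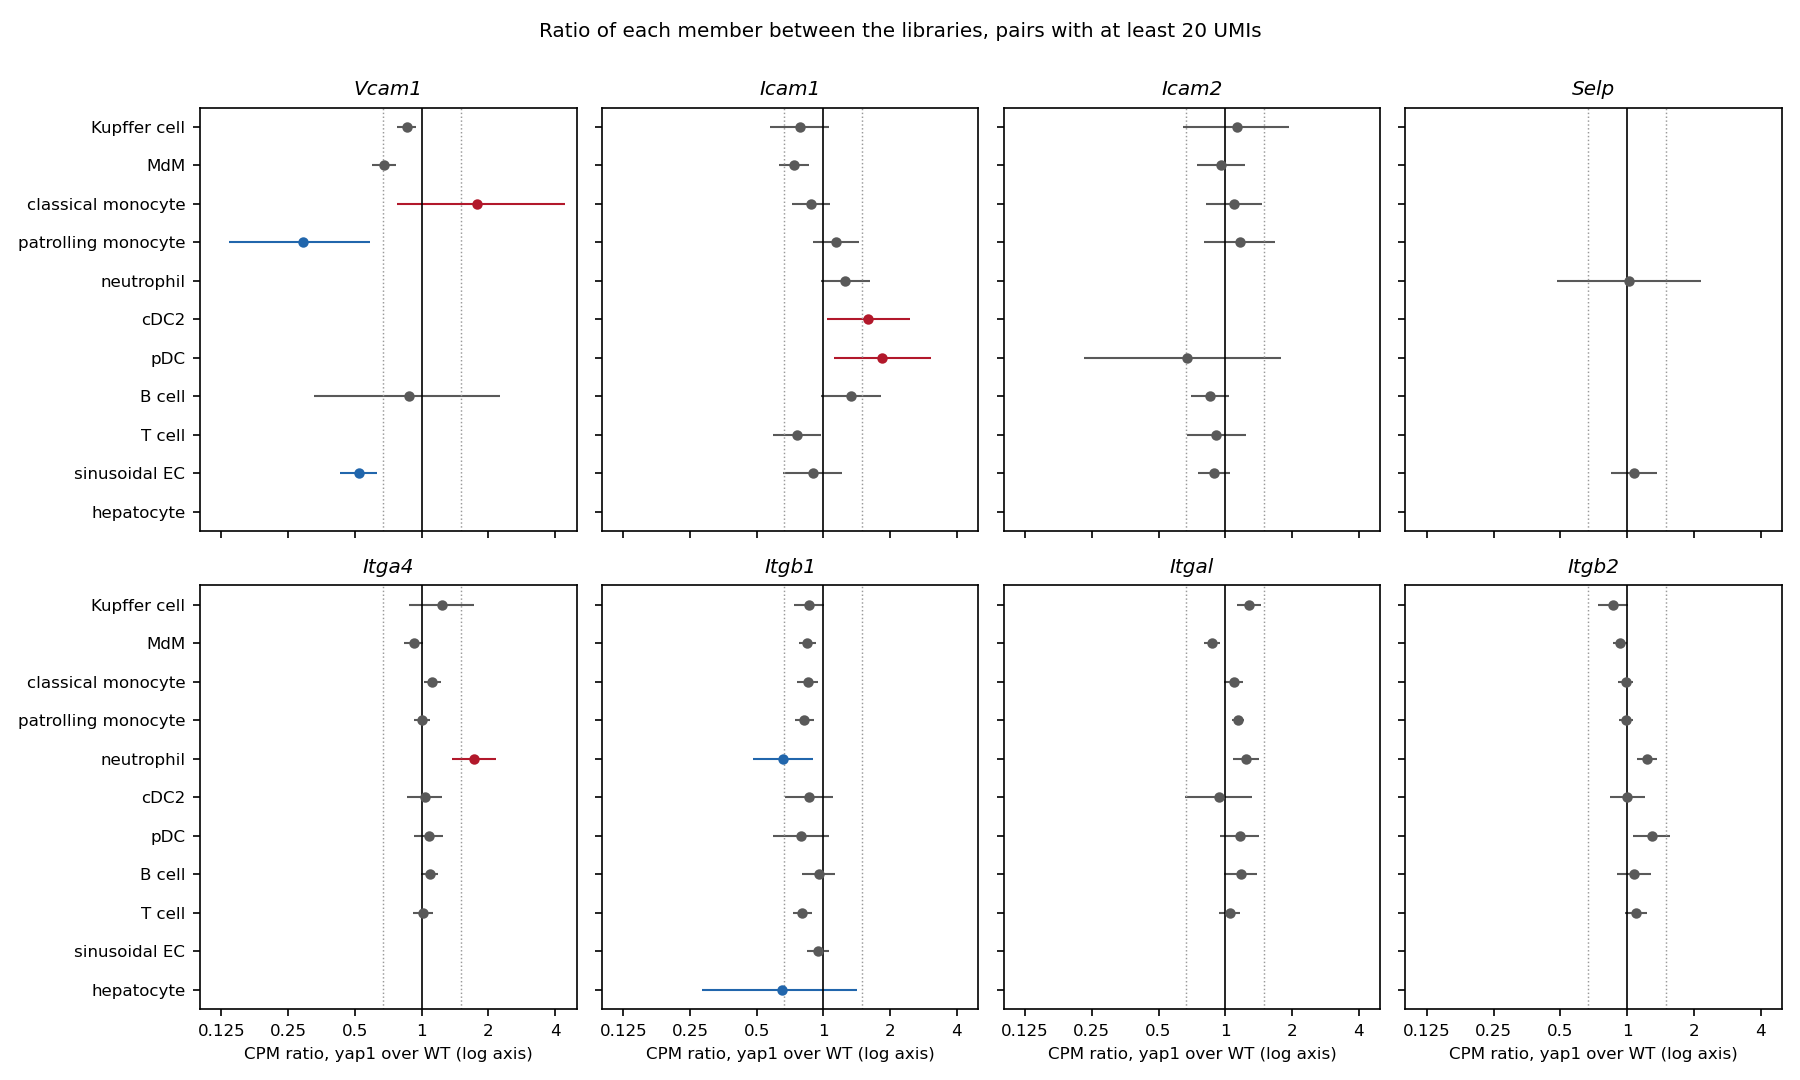
CPM ratio, yap1 over WT (log axis), of each gene in each class with at least 20 UMIs over both libraries; bars are exact 95% intervals for counting error, dotted lines mark 1.5-fold either way, red is higher and blue lower past that fold. Vcam1 in sinusoidal endothelial cells is at 0.520, Itga4 in neutrophils at 1.72, and every Itgb1 point lies left of 1.

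In sinusoidal endothelial-like cells, which line the liver's capillaries, Vcam1 stood at 148 CPM (125 to 174) in the yap1 library, from 144 UMIs in 314 cells, and at 284 CPM (258 to 313) in the WT library, from 418 UMIs in 439 cells. The ratio was 0.520 (0.427 to 0.630), and 9.56% of all genes counted in this class were at least 1.5-fold lower. A Vcam1 UMI was found in 19.4% (15.2 to 24.2%) of yap1 and 30.1% (25.8 to 34.6%) of WT cells, whose median depths were 2202 UMIs (yap1) and 2234 UMIs (WT). With each cell thinned to 1000 UMIs, which left out 60 yap1 and 92 WT cells, the shares were 9.84% (yap1) and 15.3% (WT). B cell-like cells, which should lack the gene, had a UMI in 0.754% of yap1 and 0.920% of WT cells at median depths of 4415 UMIs (yap1) and 3666 UMIs (WT). Cells with 4 or more Vcam1 UMIs were 1.59% (4 to 7 UMIs) and 0.637% (8 or more) of the yap1 cells, against 3.64% (4 to 7 UMIs) and 3.87% (8 or more) of the WT cells.

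The endothelial class was also sliced by marker genes and by depth, in ways chosen after the data were seen. Among cells with no UMI of any vascular endothelial marker (Vwf, Sox17 and 6 others) Vcam1 stood at 69.0 CPM in yap1 and 185 CPM in WT cells, a ratio of 0.372 (0.218 to 0.609). Where 2 or more of those markers were detected it stood at 231 CPM in yap1 and 388 CPM in WT, a ratio of 0.596 (0.463 to 0.762). Without a single yap1 barcode of 14550 UMIs, described below, the yap1 value in these cells was 161 CPM (123 to 207). Levels were higher, in both libraries, in the cells that also carried genes of larger vessels. In cells of at least 2000 UMIs the ratio was 0.534 (0.437 to 0.651), and in shallower cells 0.380 (0.139 to 0.899) from 7 yap1 and 26 WT UMIs. Vascular markers as a whole summed to 544 CPM in yap1 and 776 CPM in WT cells of the class, with Rspo3, a gene of the central vein, at 115 CPM in yap1 and 312 CPM in WT cells. Their part in the Vcam1 difference was not tested beyond the slices above.

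Kupffer markers summed to 212 CPM in yap1 and 326 CPM in WT sinusoidal endothelial-like cells, against 24371 CPM in yap1 and 22871 CPM in WT Kupffer cell-like cells, and Cd163 was at 0 in both. Most of the endothelial sum was Slc40a1, the iron exporter, at 165 CPM in yap1 and 203 CPM in WT. Without cells that held a UMI of any of the other 8 Kupffer markers, 282 yap1 and 366 WT cells remained, with Vcam1 at 154 CPM in yap1 and 294 CPM in WT, a ratio of 0.523 (0.424 to 0.641). When Slc40a1 was counted as a Kupffer marker too, the cells with none had 161 CPM in yap1 and 194 CPM in WT, a ratio of 0.827 (0.612 to 1.11), and the cells with at least 1 had 135 CPM in yap1 and 346 CPM in WT, a ratio of 0.391 (0.296 to 0.511). The ratio was thus lower in endothelial-like cells that also held Slc40a1 or another Kupffer marker, and the part of those genes in it was not tested.

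A single yap1 barcode decided the values of Icam1 and Selp in the endothelial class. It held 14550 UMIs, among them 78 of the class's 120 Selp UMIs, 41 of its 70 Icam1 UMIs, 30 of its 144 Vcam1 UMIs and 33 Vwf UMIs (von Willebrand factor, which shares its storage granules with P-selectin), and 9 of 12 sinusoidal and 3 of 8 vascular markers were detected in it. With all barcodes, Selp stood at 123 CPM (102 to 147) in the yap1 and 114 CPM (97.6 to 133) in the WT library, a ratio of 1.08 (0.846 to 1.37). Without that barcode it stood at 43.8 CPM in the yap1 library against the same WT value, a ratio of 0.383 (0.266 to 0.540). Icam1 stood at 71.8 CPM (56.0 to 90.8) in yap1 and 80.3 CPM (66.4 to 96.1) in WT cells with all barcodes, a ratio of 0.895 (0.656 to 1.21), and 30.2 CPM in the remaining 313 yap1 cells, a ratio of 0.376 (0.242 to 0.569). Vcam1 without it was at 119 CPM, a ratio of 0.418 (0.337 to 0.515). With the highest barcode of the WT library left out as well, the ratios were 0.413 (0.286 to 0.584) for Selp, 0.442 (0.281 to 0.673) for Icam1 and 0.441 (0.355 to 0.544) for Vcam1. The constitutive receptor Icam2 stood at 241 CPM in yap1 cells with the barcode and 243 CPM without it, against 270.0 CPM in WT cells. Itgb1 stood at 540 CPM in yap1 cells with the barcode and 546 CPM without it, against 571 CPM in WT cells.

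**Figure D3:**
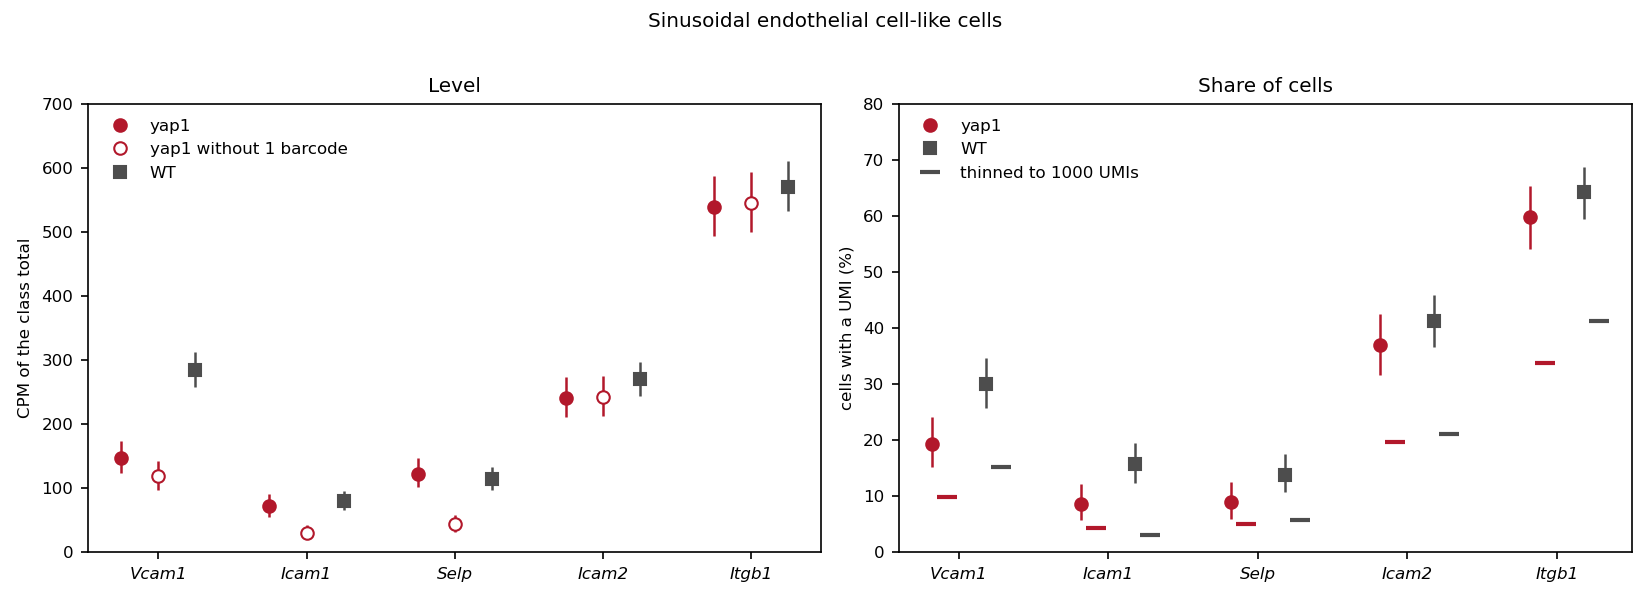
Sinusoidal endothelial cell-like cells: level in CPM (left; filled red yap1, open red yap1 without the 1 barcode of 14550 UMIs, grey WT) and share of cells with a UMI in percent (right; short bars after thinning each cell to 1000 UMIs), with 95% intervals for counting error. Without that barcode Vcam1, Icam1 and Selp lie at 119, 30.2 and 43.8 CPM, below 284, 80.3 and 114 CPM in WT, while Icam2 and Itgb1 stay close to WT.

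Shares of cells do not hang on 1 barcode. A Selp UMI was found in 8.92% (6.01 to 12.6%) of yap1 and 13.9% (10.8 to 17.5%) of WT sinusoidal endothelial-like cells, and an Icam1 UMI in 8.60% (5.74 to 12.3%) of yap1 and 15.7% (12.4 to 19.5%) of WT cells. After thinning, however, the shares were 5.12% (yap1) and 5.76% (WT) for Selp and 4.33% (yap1) and 3.17% (WT) for Icam1, each from 11 to 20 positive cells, so that no order of the libraries can be read from them at this depth. Selp levels also differed with genes of larger vessels. Where 2 or more vascular markers were detected it stood at 254 CPM in yap1 and 209 CPM in WT cells, and without the 1 barcode at 58.0 CPM (36.4 to 87.8) in yap1 cells. Cells with none of those markers had 36.1 CPM in yap1 and 48.1 CPM in WT. Within the class, cells with no platelet marker held 114 of 120 yap1 and 143 of 168 WT Selp UMIs, and 78 of those 114 were in the 1 barcode. The small vascular endothelial-like class, with 4 yap1 and 9 WT cells, held 14 yap1 and 6 WT Selp UMIs, and sinusoidal endothelial-like cells held 67.0% (yap1) and 68.3% (WT) of all Selp UMIs of the libraries.

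Genes that respond to inflammatory signals in endothelial cells had mostly lower values in the yap1 library. Of 19 listed endothelial activation genes, 15 had at least 20 UMIs in the sinusoidal endothelial-like class, and 12 of the 15 had a ratio under 1, against 54.0% of all 8811 genes counted. Of the 15, 5 were at least 1.5-fold lower and 1 at least 1.5-fold higher, against 9.56% and 7.29% of all genes. Their median log2 ratio was -0.32, beside -0.04 over all genes, and -0.47 without the 1 barcode named above. Cxcl10, a chemokine for T cells, stood at 122 CPM in yap1 and 260.5 CPM in WT cells (ratio 0.469, 0.378 to 0.577), with 54.6% of the yap1 UMIs in 5 cells. Nfkbia, the inhibitor induced by NF-kB, stood at 267 CPM in yap1 and 442 CPM in WT (0.604, 0.521 to 0.698). Cxcl2, a chemokine for neutrophils, went the other way at 35.9 CPM in yap1 and 19.7 CPM in WT (1.82, 1.08 to 3.09). Of 12 counted genes for junctions and passage between endothelial cells, 9 had a ratio under 1, with Jam2 at 346 CPM in yap1 and 450 CPM in WT (0.768), Esam at 585 CPM in yap1 and 724 CPM in WT (0.808) and Mcam at 263 CPM in yap1 and 325 CPM in WT (0.808), and 1 was past 1.5-fold. Scavenger and adhesion receptors of the sinusoid (Stab1, Stab2, Cd36 and others) showed no such tilt, with 2 of 9 under 1 and none past 1.5-fold.

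In Kupffer cell-like cells Vcam1 was closer between the libraries. It stood at 607 CPM (558 to 659) in 203 yap1 cells and 709 CPM (669 to 751) in 410 WT cells, a ratio of 0.856 (0.773 to 0.947). A UMI was found in 51.2% of yap1 and 49.3% of WT cells, and 9.36% (yap1) and 8.54% (WT) of cells held 8 or more. Single cells reached 50 UMIs in the yap1 and 110 UMIs in the WT library, and without the highest barcode of each the ratio was 0.896 (0.805 to 0.996). The median of the yap1 cells was deeper, at 2881 UMIs against 2130 UMIs in WT cells. Thinned shares were 29.8% (yap1) and 32.4% (WT). Kupffer cell-like cells held 37.9% of the yap1 library's Vcam1 UMIs and 50.6% of those in the WT library, and made up 4.89% (yap1) and 8.46% (WT) of the cells. Over all kept cells Vcam1 stood at 45.0 CPM in yap1 and 76.6 CPM in WT, a ratio of 0.588, and at 0.767 when the yap1 classes were weighted by their WT shares.

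**Figure D4:**
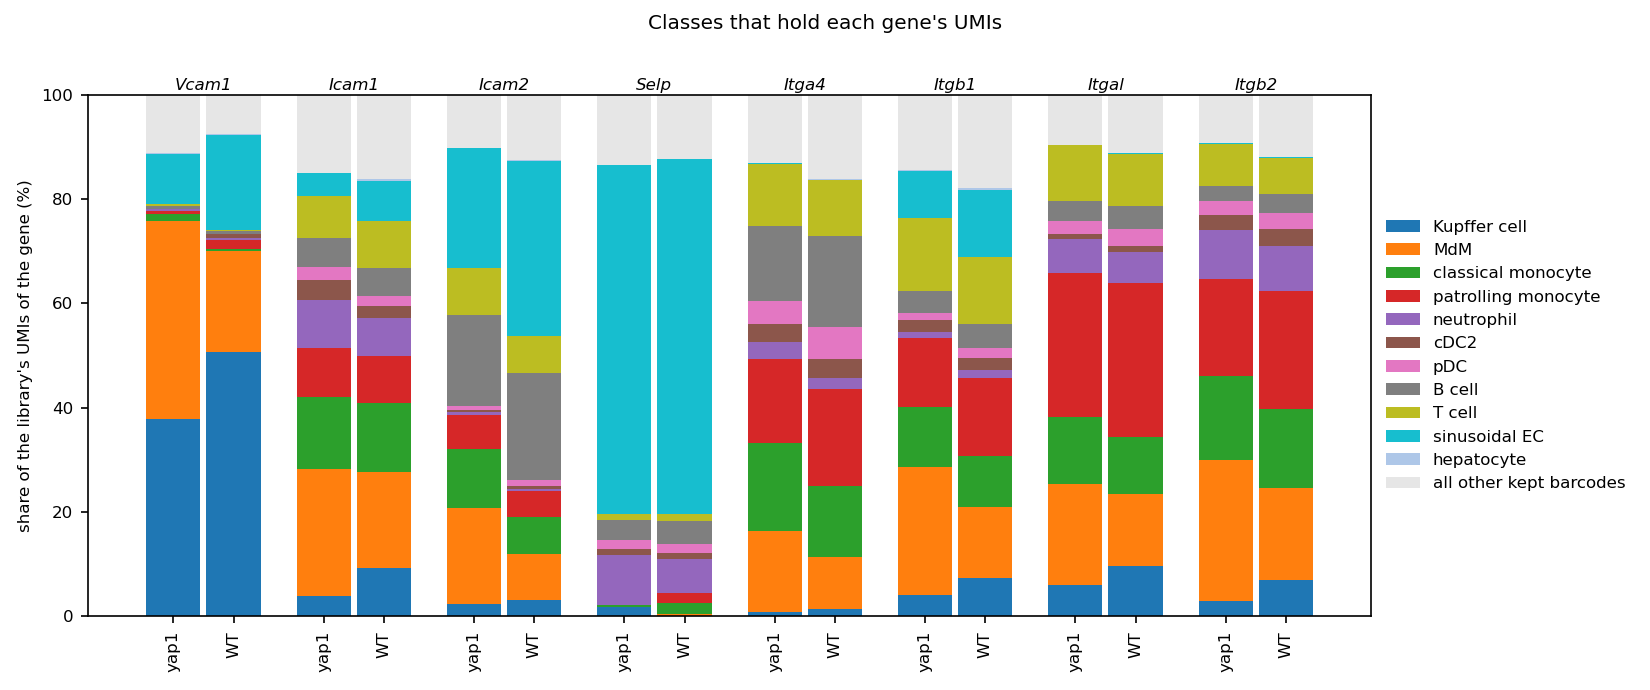
Share of each library's UMIs of a gene (percent, stacked to 100) held by each marker-gated class, yap1 left of WT for each gene; grey is all other kept barcodes, including small classes and barcodes with mixed or too few markers. Kupffer cells hold 37.9% (yap1) and 50.6% (WT) of Vcam1, and sinusoidal endothelial cells 67.0% (yap1) and 68.3% (WT) of Selp.

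Monocyte-derived macrophage-like cells, recruited cells marked by Gpnmb, Trem2 and Spp1, had Vcam1 at 60.7 CPM (55.8 to 65.9) in 590 yap1 cells and 90.02 CPM (81.9 to 98.8) in 375 WT cells, a ratio of 0.674 (0.594 to 0.765), just inside 1.5-fold. Within the class the level was highest in cells with several Kupffer markers. In cells with 2 or more of them Vcam1 stood at 151 CPM in yap1 and 195 CPM in WT cells, with 1 at 40.6 CPM in yap1 and 28.2 CPM in WT, and with none at 11.1 CPM in yap1 and 30.5 CPM in WT. The ratio in cells with none was 0.366 (0.240 to 0.553), from 42 yap1 and 58 WT UMIs, and in cells with 1 it was 1.44 (0.979 to 2.16), so the direction was not the same in all 3 slices. The class had most of its endothelial activation genes below 1 as well, 15 of 17 counted, with 6 at least 1.5-fold lower, 1 higher and a median log2 ratio of -0.38 beside 0.01 over all genes. Of all genes in this class, 47.7% had a ratio under 1, 5.55% were that much lower and 5.93% higher. The same list had 12 of 13 counted genes under 1 in B cell-like cells (4 at least 1.5-fold lower, median -0.31 on the log2 scale) and 11 of 15 in T cell-like cells (3 lower and 2 higher, median -0.18). Of all genes in B cell-like cells, 53.1% were under 1 and 5.3% that much lower. In T cell-like cells 55.3% of all genes were under 1, 6.2% that much lower and 6.06% higher. In neutrophil-like cells 12 of 17 were over 1, with a median of 0.16 beside 0.19 over all genes, of which 32.9% were under 1. Kupffer cell-like cells had 10 of 16 under 1 and 6 over 1, with a median of -0.10 beside 0.02 over all genes. The tilt was thus seen outside endothelial and monocyte-derived macrophage-like cells, but was small in Kupffer cell-like cells. Some B cell values were low: Il1b stood at 28.5 CPM in yap1 and 74.0 CPM in WT, beside 11060 CPM in yap1 and 8478 CPM in WT neutrophil-like cells. Whether B cell-like cells made these transcripts themselves was not tested. In monocyte-derived macrophage-like cells Il1b, an inflammatory cytokine that macrophages secrete, stood at 1169 CPM in yap1 and 2484 CPM in WT (0.471). Tnf stood there at 28.2 CPM in yap1 and 60.1 CPM in WT (0.469) and the chemokine Cxcl1 at 116 CPM in yap1 and 258 CPM in WT (0.450). These lists were drawn up with results of these data known, and the counts describe these 2 libraries.

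The other Vcam1 values past 1.5-fold rested on few UMIs. Patrolling monocyte-like cells held 11 yap1 and 39 WT UMIs (ratio 0.292, 0.135 to 0.582), with all 11 yap1 UMIs and 74.4% of the WT UMIs in 5 cells. In that class 9.46% of all genes were that much lower. Classical monocyte-like cells held 20 yap1 and 9 WT UMIs (1.78, 0.775 to 4.44), in a class with 6.23% of all genes that much higher. Type 2 conventional dendritic cell-like cells held 0 yap1 and 17 WT UMIs, too few for the pair to be counted. Of the 66 WT cells, 1.515% held 1 UMI, 1.515% held 4 to 7 and 1.515% held 8 or more. In mesenchymal-like cells, too few to compare, 21 UMIs in 9 yap1 cells and 55 UMIs in 19 WT cells gave 234 CPM (145 to 357) in yap1 and 366 CPM (275 to 476) in WT.

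Icam1, the inducible receptor for LFA-1, was spread over blood cells and endothelium. Among compared classes it lay between 6.57 CPM (hepatocyte-like) and 90.9 CPM (neutrophil-like) in the yap1 library and between 15.3 CPM (B cell-like) and 87.0 CPM (Kupffer cell-like) in the WT library, and most neighbours in that order overlapped in their intervals. It was lower in monocyte-derived macrophage-like cells at 42.1 CPM in yap1 against 57.1 CPM in WT (ratio 0.737, 0.631 to 0.862), although thinning to 1000 UMIs turned that to 1.89, and in T cell-like cells at 38.9 CPM in yap1 against 51.3 CPM in WT (0.758, 0.592 to 0.9703). It was higher in plasmacytoid dendritic cell-like cells at 50.5 CPM in yap1 against 27.5 CPM in WT (1.84, 1.12 to 3.04), with a UMI in 32.4% (yap1) and 18.8% (WT) of cells, and in type 2 conventional dendritic cell-like cells at 68.9 CPM in yap1 against 43.5 CPM in WT (1.58, 1.03 to 2.45). The last value was 1.49 (0.927 to 2.42) without the highest barcode of each library and 1.14 with each cell weighted equally, both under 1.5-fold. The plasmacytoid value was 1.90 (1.12 to 3.28) without those barcodes but 1.405, under 1.5-fold, without the deepest 4% of barcodes. Median depths of the plasmacytoid class were 11391 UMIs (yap1) and 9580 UMIs (WT). At least 1.5-fold higher were 7.75% of all genes in plasmacytoid and 9.28% in type 2 conventional dendritic cell-like cells. NK or ILC1-like cells, with 42 yap1 and 54 WT cells, held 29 yap1 and 68 WT Icam1 UMIs, or 88.8 CPM (59.4 to 128) in yap1 and 199.6 CPM (155 to 253) in WT, and a UMI was found in 40.5% (yap1) and 64.8% (WT) of them.

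Icam2, which resting endothelium and lymphocytes carry, was steadier. It stood at 241 CPM (211 to 274) in yap1 and 270.0 CPM (244 to 298) in WT sinusoidal endothelial-like cells, a ratio of 0.893 (0.757 to 1.05). B cell-like cells came next at 39.4 CPM in yap1 and 46.0 CPM in WT. Neutrophil-like cells were low at 3.69 CPM in yap1 and 3.20 CPM in WT. Of its 8 counted classes none was past 1.5-fold, and the interval of the ratio held 1 in each. Selp outside the endothelium was found in neutrophil-like cells, at 10.4 CPM (6.08 to 16.7) in yap1 and 10.3 CPM (5.86 to 16.7) in WT, from 17 yap1 and 16 WT UMIs in 2.99% (yap1) and 3.54% (WT) of cells. B cell-like cells, at larger depths, had it in 0.754% (yap1) and 0.844% (WT). All of the neutrophil UMIs lay in cells with no platelet marker.

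Itgb1, the shared beta chain of VLA-4 and many matrix-binding integrins, was lower in the yap1 library in all 11 compared classes. The ratios ran between 0.647 and 0.951 with a median of 0.846. Among 6004 genes counted in at least 9 classes, 1.62% had a ratio under 1 in every class where they were counted, and 1.78% a ratio over 1. The differences were small in each class: 364 CPM in yap1 and 444 CPM in WT for patrolling monocyte-like cells (0.821, 0.746 to 0.903), 151 CPM in yap1 and 179 CPM in WT for monocyte-derived macrophage-like cells (0.846, 0.778 to 0.921), 244 CPM in yap1 and 303 CPM in WT for T cell-like cells (0.804, 0.729 to 0.887) and 540 CPM in yap1 and 571 CPM in WT for sinusoidal endothelial-like cells (0.946, 0.847 to 1.06). In 5 of the 11 classes the interval lay below 1. The intervals cover counting error only and are narrow for a gene with many UMIs. The share of all genes with such an interval is not given here, so this count is not set against a background. NK or ILC1-like cells, too few to compare, stood at 416 CPM (349 to 492) in yap1 and 393 CPM (330 to 466) in WT. Neutrophil-like cells were past 1.5-fold at 43.0 CPM in yap1 and 65.4 CPM in WT (0.658, 0.479 to 0.901), and hepatocyte-like cells on 12 yap1 and 18 WT UMIs (0.647, 0.284 to 1.42), while 6.86% of all genes in neutrophil-like and 9.3% in hepatocyte-like cells were that much lower. It was under 1 in every counted class under each other scaling, filter and gate that was run, but after thinning to 1000 UMIs it was under 1 in 6 of the 8 classes that could still be counted. Since both libraries are single, a shift of this size that runs through lymphoid, myeloid and endothelial cells cannot be told apart from a difference between the libraries.

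Within T cell-like cells Itgb1 was split by Cd8. In those with no Cd8a or Cd8b1 UMI it stood at 379 CPM (346 to 414) in 216 yap1 cells and 527 CPM (485 to 572) in 228 WT cells. In those with at least 1, a mark of the cytotoxic lineage, it stood at 156 CPM in yap1 and 152 CPM in WT. A test of the difference between the sides of this split was not run. B cell-like cells held single barcodes with 55 yap1 and 30 WT UMIs of Itgb1 out of 245 yap1 and 301 WT UMIs, and the ratio of 0.951 was 0.818 (0.676 to 0.989) without them.

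The promoter of Itgb1 and that of its partner Itga4 are shown because the 2 chains of VLA-4 differed in level across cell types. Of the 2, Itgb1 alone was under a ratio of 1 in all 11 compared classes, though not in all after thinning. Each runs from 250 bases before to 50 bases after the start site, 5′ to 3′ on the plus strand, as given by RefSeq (GRCm38.p6), at chr8:128685404-128685703 for Itgb1 and chr2:79255176-79255475 for Itga4. Capitals mark the motif GGAATG, the core bound by TEAD factors, the partners of Yap1, searched on both strands.
Itgb1 promoter: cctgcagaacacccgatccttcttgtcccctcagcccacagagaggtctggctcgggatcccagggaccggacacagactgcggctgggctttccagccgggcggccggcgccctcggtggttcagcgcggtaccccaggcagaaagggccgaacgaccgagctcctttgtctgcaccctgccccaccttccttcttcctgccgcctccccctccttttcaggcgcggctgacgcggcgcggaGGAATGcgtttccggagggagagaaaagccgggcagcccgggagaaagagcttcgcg
Itga4 promoter: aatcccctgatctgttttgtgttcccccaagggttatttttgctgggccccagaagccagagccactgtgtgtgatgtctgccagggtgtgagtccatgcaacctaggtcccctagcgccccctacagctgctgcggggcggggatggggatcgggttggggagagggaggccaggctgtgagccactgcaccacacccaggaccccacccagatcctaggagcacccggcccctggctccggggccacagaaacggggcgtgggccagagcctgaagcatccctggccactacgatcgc
The motif occurs once in the Itgb1 stretch, starting 7 bases before the start site, and not in these letters of the Itga4 stretch. It occurs in 14.7% of 32851 promoters of 300 bases in the same table, and the NF-kB consensus was found in 11.2% of them and in neither of these. The NF-kB consensus was searched as GGRRNNYYCC (R is A or G, Y is C or T, N is any base), and only full matches were counted. By that rule the Icam1 and Selp stretches, also in the table, held neither motif. The Icam1 stretch does hold TGGAAATTCC, which departs from the searched NF-kB pattern in its first base alone. The stretches of the other 4 genes were not used here. A match of letters is a description and shows no binding.

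Itga4, the alpha chain of VLA-4, was a gene of white blood cells. It was highest in patrolling monocyte-like cells at 555 CPM (524 to 588) in yap1 and 554 CPM (523 to 586) in WT cells, then in plasmacytoid dendritic cell-like cells at 396 CPM in yap1 and 368 CPM in WT. The intervals of both classes stood clear of their neighbours. Type 2 conventional dendritic, classical monocyte and T cell-like cells followed between 243 and 294 CPM over both libraries. Migratory dendritic cell-like cells, with 24 yap1 and 27 WT cells, reached 558 CPM in yap1 and 660 CPM in WT. Sinusoidal endothelial-like cells had 7 yap1 and 8 WT UMIs, in 1.59% (yap1) and 1.82% (WT) of cells. Neutrophil-like cells were past 1.5-fold at 139 CPM (121 to 158) in yap1 and 80.7 CPM (67.2 to 96.1) in WT, a ratio of 1.72 (1.38 to 2.16), with a UMI in 30.7% (yap1) and 21.5% (WT) of cells, and in 15.3% (yap1) and 10.2% (WT) after thinning. In that class 20.4% of all genes were at least 1.5-fold higher and the median log2 ratio of all genes was 0.19. With each cell weighted equally the Itga4 ratio was 1.23.

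Neutrophil-like cells were also split by granule genes. A UMI of the granule genes Ngp, Camp or Ltf, which immature neutrophils make, was found in 12.8% of yap1 and 21.7% of WT cells. Among cells with none of them Itga4 stood at 171 CPM (148 to 196) in yap1 and 122 CPM (99.8 to 147) in WT, and among cells with at least 1 at 53.8 CPM (34.5 to 80.1) in yap1 and 26.7 CPM (15.9 to 42.3) in WT. Itga4 was higher in the cells without granule genes in both libraries, and higher in yap1 cells on each side of that split.

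Itgal and Itgb2, the chains of LFA-1, followed each other across cell types. Patrolling monocyte-like cells had the most of both, with Itgal at 969 CPM (927 to 1012) in yap1 and 852 CPM (813 to 891) in WT cells and Itgb2 at 740.1 CPM (704 to 778) in yap1 and 750 CPM (714 to 787) in WT. Kupffer cell-like cells came second for Itgal at 472 CPM in yap1 and 371 CPM in WT (ratio 1.27, 1.12 to 1.44, and 0.988 after thinning). Neutrophil-like cells came second for Itgb2 at 484 CPM in yap1 and 393 CPM in WT (1.23, 1.11 to 1.37). That Itgb2 log2 ratio was 0.30, beside a median of 0.19 over all genes of the neutrophil-like class. With the libraries scaled to the median ratio of those genes, the Itgb2 ratio was 1.08. Of 9 counted classes, Itgal had a ratio over 1 in 7 and Itgb2 in 5, and none was past 1.5-fold. Both chains were found together in 85.5% of yap1 and 79.2% of WT patrolling monocyte-like cells (32.1% in yap1 and 26.3% in WT after thinning), and in 0 of 314 yap1 and 0 of 439 WT sinusoidal endothelial-like cells. The 2 chains of VLA-4 were found together in 79.5% (yap1) and 74.0% (WT) of patrolling monocyte-like cells, or 12.8% (yap1) and 16.6% (WT) after thinning, and in 5.76% (yap1) and 7.08% (WT) of neutrophil-like cells.

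**Figure D5:**
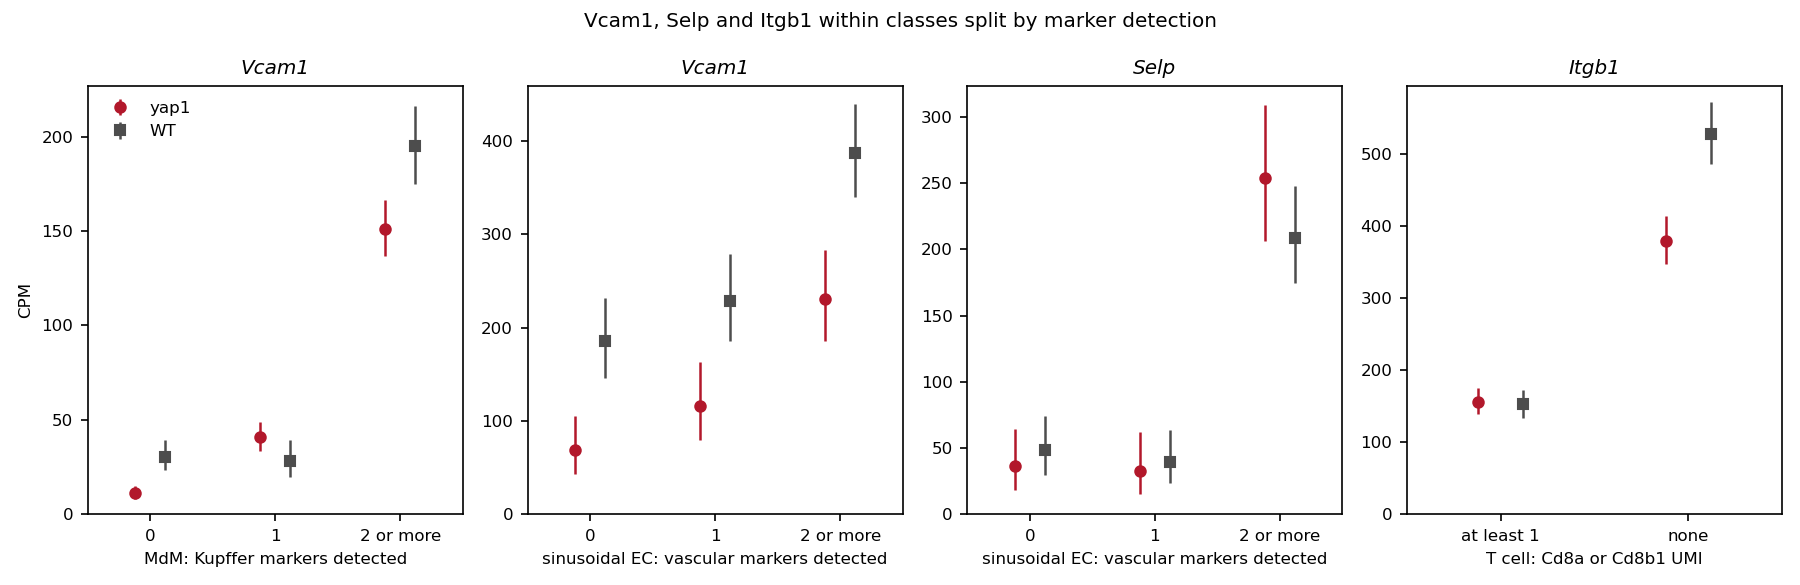
Levels (CPM, with 95% Poisson intervals for counting error; yap1 left, WT right) within classes split by marker detection: Vcam1 in monocyte-derived macrophages (MdM) by Kupffer markers, Vcam1 and Selp in sinusoidal endothelial cells (EC) by vascular markers, and Itgb1 in T cells by Cd8. Vcam1 and Selp are highest where 2 or more markers are detected. The Selp value of 254 CPM in yap1 cells is 58.0 CPM without 1 barcode, and Vcam1 in the same yap1 endothelial cells is 161 CPM without it.

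Across the 22 sums of 11 classes in 2 libraries, the gene most like Itgal was Itgb2, with a Pearson correlation of 0.944 in log2(CPM + 10) among 8075 genes, followed by Apbb1ip (0.943), an adaptor that activates integrins. Itgb2 was most like Cd44 (0.945), a receptor for hyaluronan. Itga4 was most like Sash3 (0.946), Elf4 and Coro1a, and its correlation with Itgb1 was 0.03. Itgb1 was most like Ywhab (0.894), Vcam1 like Pmp22 (0.978) and Clec1b (0.934), Selp like Rasip1 (0.992), Tinagl1 (0.988) and Mcam (0.985), Icam2 like Cdk16 (0.928) and Icam1 like Arrb2 (0.905). The points share libraries and depth, and a single class decides the value for genes such as Selp, so these are descriptions.

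Partners outside the 8 genes showed a few differences in the classes where the receptors differed. Integrin activators were close to even in sinusoidal endothelial-like cells, with 10 of 21 under 1, and in Kupffer cell-like cells, with 10 of 24 under 1 and 2 past 1.5-fold. Of all genes, 54.0% were under 1 in sinusoidal endothelial-like cells. In Kupffer cell-like cells 48.0% of all genes were under 1 and 19% past 1.5-fold. In Kupffer cell-like cells Selplg, the main ligand of P-selectin, stood at 111 CPM in yap1 and 77.8 CPM in WT (1.43, 1.09 to 1.87). The NF-kB inhibitor Tnfaip3 stood there at 136 CPM in yap1 and 238 CPM in WT (0.571, 0.463 to 0.699). Fn1, fibronectin, a ligand of VLA-4, had 98 yap1 and 11 WT UMIs in Kupffer cell-like cells, with 98.0% of the yap1 UMIs in 5 cells. In monocyte-derived macrophage-like cells Thbs1, a matrix protein that binds integrins, stood at 504 CPM in yap1 and 726 CPM in WT (0.694), and Spp1 (osteopontin, another ligand of alpha4 integrins, and a marker of the gate) at 1793 CPM in yap1 and 1363 CPM in WT (1.32).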

How the data were processed

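Whole-number counts of UMIs per gene and barcode were deposited for both libraries, per the file headers, without normalization. The submitters' processing notes name mm10, Seurat and Bowtie 0.12.2 but no step for them, and neither the counting program nor its use of strand is stated. Barcodes with at least 500 UMIs, 200 genes and at most 20% mitochondrial UMIs were kept, which removed 12.3% of yap1 and 8.01% of WT barcodes.

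Classes came from 20 marker lists, none holding a member. Each cell took the class with the highest mean of log-scaled marker UMIs (per 10000, over each marker's 99th percentile), if at least 2 markers were detected and the mean was at least 0.15. Barcodes with 2 markers of another lineage at 50% of that score or more were left out as possible doublets (154 yap1, 199 WT), and no doublet caller was run; 125 and 136 stayed unassigned.

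UMIs were summed per class and library, since cells are not replicates. CPM have exact Poisson intervals, shares Clopper-Pearson intervals and ratios exact conditional binomial intervals, all at 95% and for counting error only. Ratios were counted with at least 20 UMIs over both libraries. Calculations were tested on simulated counts. The members and all lists were chosen with earlier results of these data known. Named pathway genes are up to 3 per list with the largest absolute log2 ratio and at least 50 UMIs. Python 3.11.15, numpy 2.4.6 and scipy 1.17.1 were used.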

Additional observations from a re-analysis of the deposited data

How the results depend on the processing

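With 8 of the 64 counted gene and class pairs past 1.5-fold, alternatives gave between 6 and 10, except that counting every pair with 1 UMI in each library gave 17. For genes of the adhesion lists the count over classes was 125, with 113 to 150 under most alternatives, 81 when 50 UMIs were required and 305 with 1 UMI in each library, where more low counts enter. No ratio past 1.5-fold changed its direction. Of the single ratios under alternatives, 706 stayed within the interval given above and 47 left it. Of the 706, 59 came from requiring 50 UMIs and 64 from requiring 1 UMI in each library, settings that cannot move a ratio. After thinning, 28 ratios left the interval and 22 stayed. Vcam1 in sinusoidal endothelial-like cells ran between 0.418 (1 yap1 barcode left out) and 0.626 (thinned), and Icam1 there between 0.376 (the same barcode left out) and 1.48 (thinned). Selp there was at 0.491 without the deepest 4% of barcodes. The slices of this class by marker genes, given above, are not part of these ranges. They gave Vcam1 ratios both below and above its range. In cells with no Kupffer marker, Slc40a1 included, the interval of the Vcam1 ratio held 1. Itga4 in neutrophil-like cells ran between 1.23 and 1.78. The splits of classes, and leaving out the highest barcode or cells with Kupffer markers, were chosen after seeing the data. Few UMIs per cell limit thinned values. No paired analysis was possible because each genotype has 1 library, and for the same reason no replicate could be left out.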

Other observations

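Small classes that were not compared held some of the highest levels. Platelet or megakaryocyte-like barcodes, 3 yap1 and 10 WT, had 3 yap1 and 21 WT Itgb1 UMIs, or 1124 CPM (232 to 3286) in yap1 and 1934 CPM (1197 to 2957) in WT, and 0 yap1 and 2 WT Selp UMIs, from median depths of 781 UMIs (yap1) and 937 UMIs (WT). Basophil or mast cell-like cells, 13 yap1 and 6 WT, had Itgb1 at 406 CPM in yap1 and 579 CPM in WT and Itgal at 250.6 CPM in yap1 and 86.8 CPM in WT. Mesenchymal-like cells had Itgb1 at 657 CPM in yap1 and 505 CPM in WT and no Itga4 UMI. In migratory dendritic cell-like cells, where Itga4 was high, Itgal had 9 yap1 UMIs and 1 WT UMI, and Itgb2 31 yap1 and 9 WT UMIs. Barcodes with markers of both Kupffer and endothelial cells numbered 0 in the yap1 and 6 in the WT library, and the 6 held 10 Vcam1 UMIs. Lyz2, the gene that carries Cre, stood at 7064 CPM in yap1 and 13663 CPM in WT monocyte-derived macrophage-like cells.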
